A study of Mus musculus with 8 samples.

Results

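The regions described here are the ChIP-seq peaks that lie outside the assembled chromosomes of the mouse mm10 build. They were chosen by sequence name alone, as every peak in the deposited lists that is not on an autosome, X or Y. They numbered 1966 of the 1719263 peaks in 6 lists. Of these, 1543 were on 13 random contigs, pieces of sequence assigned to a chromosome but not to a place on it, and 412 were on 15 Un contigs, pieces assigned to no chromosome. The other 11 were on the mitochondrial genome, chrM.

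The study asked where 3 proteins bind chromatin, with the miR-9 locus named in its title. ChIP-seq, the sequencing of DNA that is crosslinked to and pulled down with a protein, was run on primary neural progenitor cells of the hippocampus of male C57BL/6 mice, with age not given in the labels. The proteins were Mgea5, which takes O-GlcNAc sugars off other proteins, Panx2, a pannexin membrane channel, and Polr1c, a subunit found in both RNA polymerase I and RNA polymerase III. Each had 2 replicate libraries, and 2 input libraries of unprecipitated chromatin, not used here, made up the 8 samples. All samples share this one cell source, and the labels name no genotype or drug difference between them: the groups differ in the protein precipitated. Nothing in the labels says that the replicates are separate cultures or animals, and p-values then measure only the spread between these libraries, which may be technical. Peak lists carry no expression values, so the labelled cell type could not be checked against marker genes.

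The lists differed in ways that touch every comparison between proteins. Broad peaks were called for Mgea5 and Panx2 and narrow peaks for Polr1c, by the layout of the files, so protein and layout cannot be told apart. The run directory in the peak names put Panx2 replicate 1 and Polr1c replicate 1 in 1 calling run, called run A here, and the other 4 lists in another, run B. The read depth of the libraries is unknown from the files. Values were therefore compared within a list, between its peaks on contigs and chrM and its peaks on the 21 main chromosomes.

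A genome assembly leaves pieces unplaced mostly where the sequence is repeated, so that neighbours cannot be told apart, and a repeat held once in the assembly can stand for many copies in the cell. Reads from all those copies then align to the few that were assembled. The ribosomal RNA genes that RNA polymerase I transcribes are such a repeat, in long tandem arrays. The mitochondrial genome is a small circle outside the nucleus, present in many copies per cell, with its own RNA polymerase. It codes for subunits of the respiratory chain and for the rRNAs and tRNAs that translate them, and holds a noncoding control region where replication and transcription start.

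In replicates 1 and 2, Mgea5 had 478 and 569 of these peaks, Panx2 had 196 and 482, and Polr1c had 41 and 200. As a share of its own list, this was 0.0890% and 0.109% (Mgea5), 0.135% and 0.101% (Panx2), and 4.96% and 0.557% (Polr1c). The Polr1c lists thus had the highest shares, and Polr1c replicate 1, the shortest list with 826 peaks, the highest of all. In that list 36 of the 41 were on a single contig, chrUn_JH584304, and the other 5 were on 5 different contigs. In Polr1c replicate 2 the same contig held 87 of 200. In the broad lists chr5_JH584299_random held the most peaks, with 103, 131, 63 and 85, and JH584304 held 19, 14, 13 and 20.

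**Figure D1:**
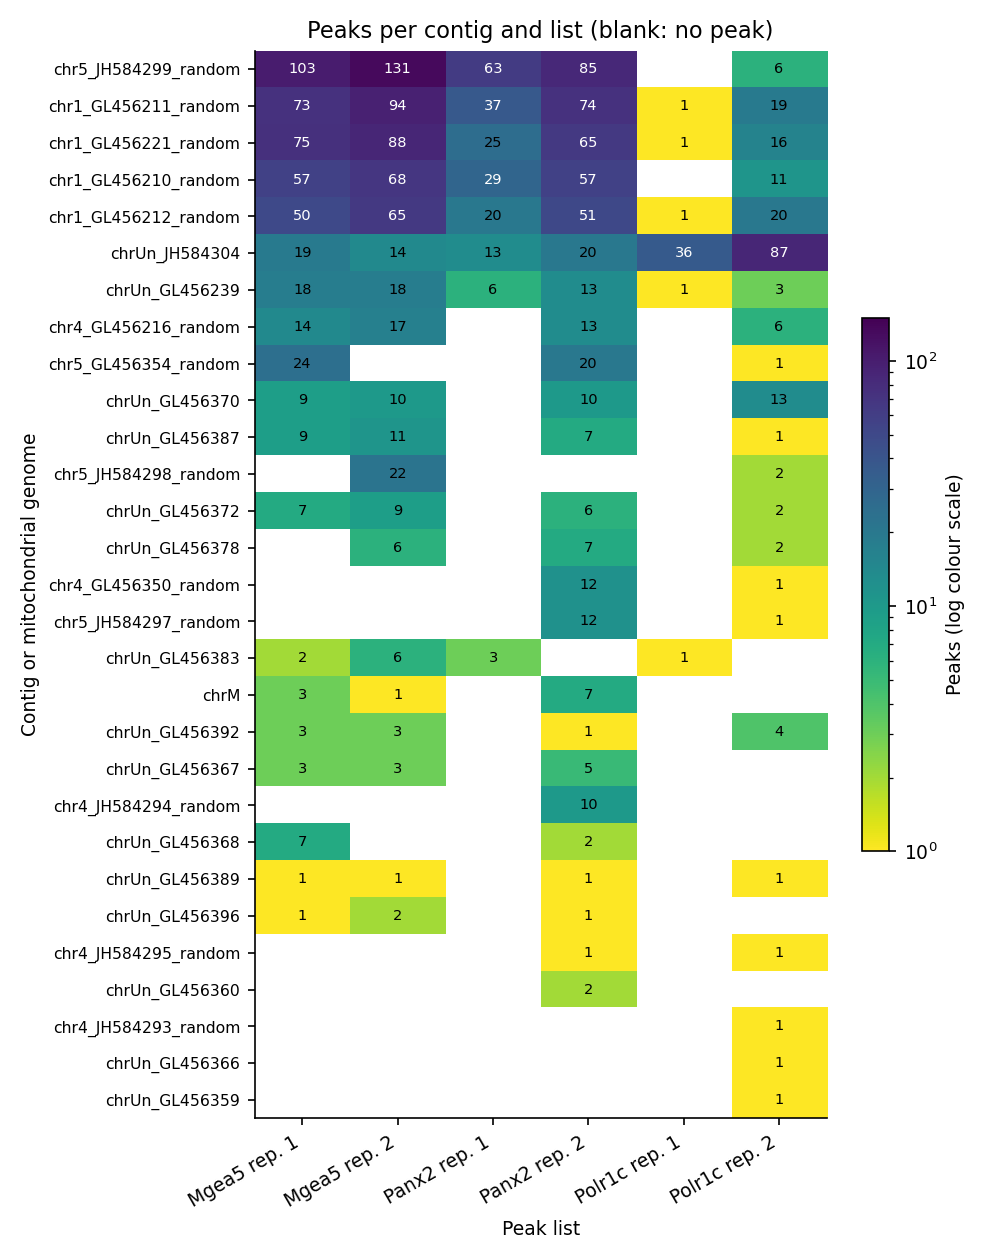
Number of peaks on each contig (rows, ordered by total) in each list (columns), with a log colour scale and blanks where a list has no peak. The chromosome 1 and chromosome 5 random contigs hold most peaks of the broad lists, whereas JH584304 holds most peaks of Polr1c replicate 1 (36) and the largest number in Polr1c replicate 2 (87).

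Of the 29 sequences with a peak, 5 had one in all 6 lists: JH584304, chrUn_GL456239 and the chromosome 1 random contigs GL456211, GL456212 and GL456221. Another 5 had a peak in 1 list only. The 4 lists of run B had peaks in common on 13 sequences, and 6 of these 13 had no peak in either list of run A. The 2 run A lists together reached 8 sequences and shared 6. Contigs per list, chrM included, numbered 19 in both Mgea5 replicates, 8 and 24 in those of Panx2, and 6 and 22 in those of Polr1c. Within Panx2 and within Polr1c the list of run A was the one with fewer contigs and fewer peaks. The part of the calling run in this was not tested.

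Most of these peaks had no support once the caller had adjusted for the number of positions tested. The deposited −log10 q was 0, a q of 1, for 396 of 478 and 481 of 569 peaks in the Mgea5 lists, for 191 of 196 and 225 of 482 in the Panx2 lists, and for 10 of 41 and 32 of 200 in the Polr1c lists. On the main chromosomes the same held for 97.4% and 97.7% of Mgea5 peaks, 99.9% and 63.8% of Panx2 peaks, and 65.4% and 28.7% of Polr1c peaks. A peak with a −log10 q of at least 2, a q of at most 0.01, is called strong below.

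Strong peaks made up a larger share on contigs than on main chromosomes in each of the 6 lists. For Mgea5, 6 of 478 contig peaks (1.26%) were strong in replicate 1, where the share of the whole list was 0.0212%, and 8 of 569 (1.41%) in replicate 2, against 0.0224% of the list. For Panx2, 1 of 196 (0.510%) was strong in replicate 1, against 0.00825% of the list, and 7 of 482 (1.45%) in replicate 2, against 0.0786%. For Polr1c, 30 of 41 (73.2%) were strong in replicate 1, against 29.8% of the list, and 67 of 200 (33.5%) in replicate 2, against 3.92%. No chrM peak was strong, and neither was any random-contig peak of the Mgea5 and Panx2 lists.

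The contig share exceeded the share on main chromosomes by 13.3 percentage points on average (SD 19.5, n = 6 lists, higher in 6 of 6, exact two-sided sign-flip permutation test, p = 0.03125, the smallest this design allows, adjusted p = 0.0417 over 4 tests). The 2 lists of a protein are not independent, nor are lists that may share an input library, so the 6 lists count for less than 6 separate observations. The call was lost without JH584304. On the other contigs and chrM the Mgea5 replicates had 3 and 4 strong contig peaks, those of Panx2 had 0 and 4, and those of Polr1c had 0 and 18, and the mean difference was −2.20 points (higher in 4 of 6 lists, exact permutation p = 0.969). The 4 lists that stayed higher were both Mgea5 lists (0.654% and 0.721% on the other contigs), Panx2 replicate 2 (0.866%) and Polr1c replicate 2 (15.9%), the 4 lists of run B. The negative mean rested on Polr1c replicate 1, which had 5 peaks left, 0% of them strong against 27.5% on the main chromosomes, and without that list as well the mean was 2.86 points (higher in 4 of 5 lists, exact permutation p = 0.125).

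**Figure D2:**
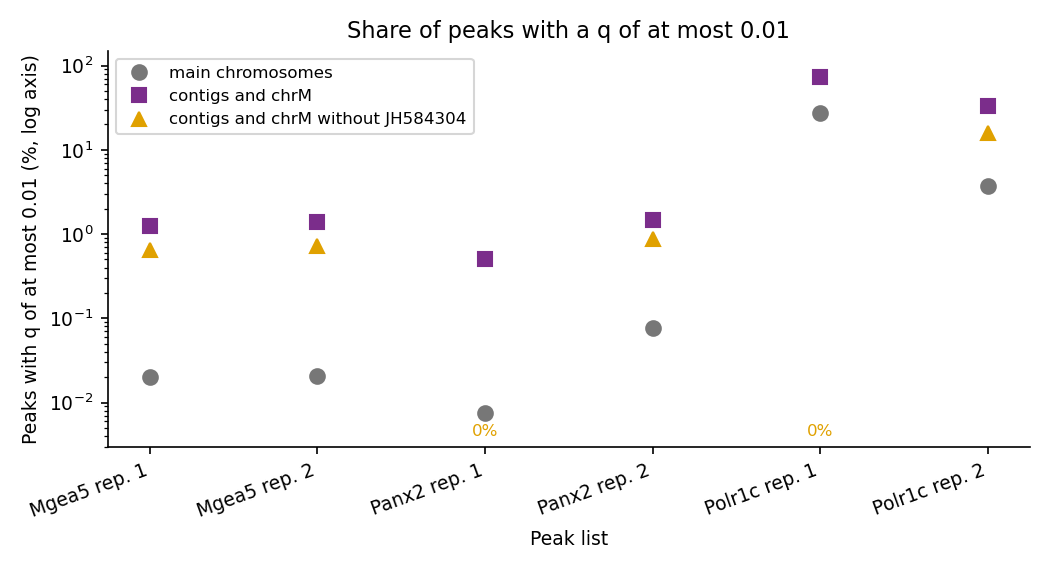
Percent of peaks with a q of at most 0.01 (log axis) in each list, for the main chromosomes, for contigs and chrM, and for contigs and chrM without JH584304, with 0% written in the colour of its group where it cannot be drawn. The contig value lies above the main chromosome value in all 6 lists, and without JH584304 it is 0% in Panx2 replicate 1 and Polr1c replicate 1.

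All 3 proteins had strong peaks in 1 common part of JH584304. Panx2 replicate 2 and Polr1c replicate 2 also had 1 and 18 strong peaks elsewhere on this contig. Merged over the lists, the strong contig peaks formed 35 regions. The 1 region found in all 6 lists spanned bases 68295 to 114435 of JH584304, 46141 bp that end with the last peak on this contig in any list. Within a list, the first peak of this block started at base 68491 and 68295 (Mgea5), 68554 and 68524 (Panx2), and 68558 and 68505 (Polr1c), so the starts fell close together. The last block peak ended at 114420 and 114430, at 114264 and 114435, and at 113407 and 114421 in the same order. No gene of the RefSeq table could be placed in the block, because the table lists 17 genes on unplaced sequence without naming their contig. The block was found by looking at these values, so it is described here and not tested.

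Before the block, peaks on JH584304 were lower in fold, the caller's ratio of ChIP pileup to background. In Mgea5 replicate 1 the 16 peaks before the block had folds of 1.36 to 1.54 and the 3 block peaks 1.92 to 2.03. In replicate 2 the 10 peaks before it had 1.31 to 1.58 and the 4 block peaks 1.79 to 1.82. Panx2 replicate 1 had 12 peaks of 1.26 to 1.49 before the block and a single peak of 1.72 over 99.1% of it. Panx2 replicate 2 had 18 peaks of 1.34 to 1.85 before it and 2 block peaks, both of 2.61. In these 4 broad lists no peak before the block reached the fold of any block peak. In the Polr1c lists the ranges overlapped: 1.39 to 1.90 for 6 peaks before the block and 1.37 to 2.995 for 30 block peaks in replicate 1, and 1.45 to 2.78 for 56 before and 2.03 to 2.87 for 31 in replicate 2.

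Every block peak was strong in every list: Mgea5 had 3 and 4, Panx2 had 1 and 2, and Polr1c had 30 and 31. Before the block, strong peaks numbered 0 in both Mgea5 lists, 0 and 1 in the Panx2 lists, and 0 and 18 in the Polr1c lists. The highest −log10 q in the block was 6.83 and 4.24 (Mgea5), 54.2 and 11.0 (Panx2), and 241 and 21.8 (Polr1c). By −log10 q these peaks had ranks 18 and 26, 10 and 25, and 10 and 114 in their own lists. The −log10 q values are not comparable between lists, whose depth and calling differ.

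The block held some of the widest peaks of each list. Its widest peak was 24509 and 24483 bp in the Mgea5 lists, with rank 2 by width in both, and 45711 and 36268 bp in the Panx2 lists, the widest peak of each list. In the Polr1c lists it was 1807 and 2378 bp, with ranks 2 and 5 by width. Peaks covered 96.4% and 96.6% of the block (Mgea5), 99.1% and 97.9% (Panx2), and 52.2% and 76.6% (Polr1c). Of the 68294 bp before the block they covered 76.7% and 85.9%, 37.9% and 73.7%, and 3.95% and 30.1%. The stretch just before the block was free of peaks for 2102 and 1930 bp in the Mgea5 lists, 5722 and 2637 bp in the Panx2 lists, and 51353 and 3979 bp in the Polr1c lists.

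**Figure D3:**
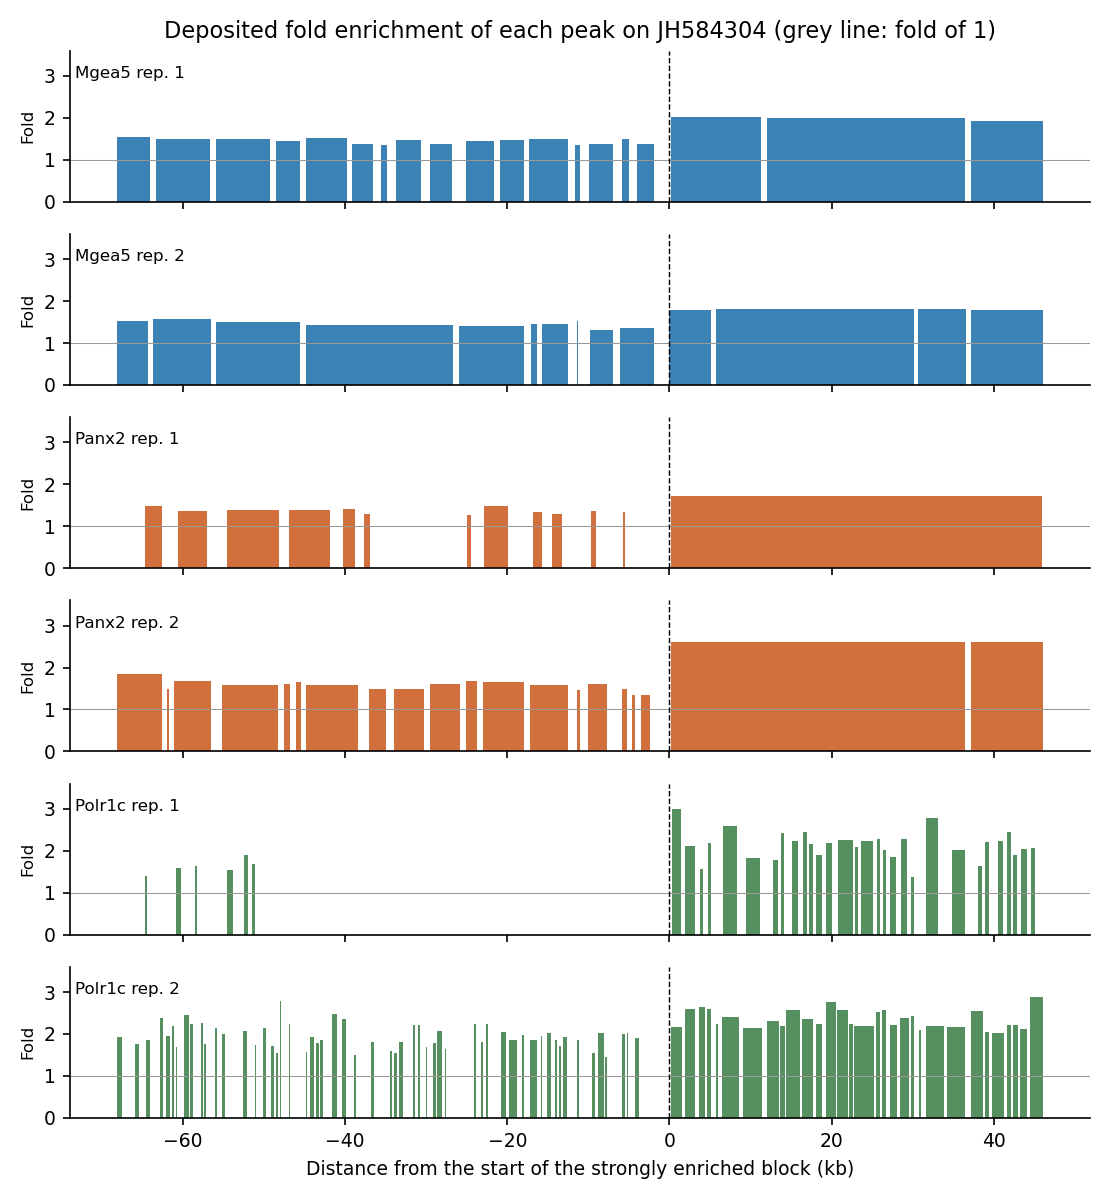
Each peak on JH584304, drawn to scale as a bar from 0 to its deposited fold, against distance in kb from the start of the block (dashed line), with 1 panel per list and a grey line at a fold of 1. The folds step up at the dashed line in the 4 broad lists, and a short gap near 37 kb recurs in 5 of the 6 lists.

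Gaps inside the block recurred at like positions. The clearest lay between peaks ending near base 104790 and starting near base 105528, as in Mgea5 replicate 1. The flanking peaks ended at 104928 and started at 105453 in Mgea5 replicate 2, and at 104791 and 105534 in Panx2 replicate 2. For Polr1c they ended at 104709 and started at 106327 in replicate 1, and at 104779 and 105526 in replicate 2. Panx2 replicate 1, whose single peak runs over the whole block, was the 1 list without it. The Polr1c lists had many other gaps in the block, with 30 and 31 peaks over 52.2% and 76.6% of it. A gap in those lists therefore says less.

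The peak pattern inside the block also repeated itself. With the block cut into bins of 50 bp and the covered share of each bin compared with that of the bin a fixed distance away, Pearson's r was highest at a distance of 25250 bp in both Polr1c lists, 0.659 in replicate 1 and 0.672 in replicate 2 (417 pairs of bins). The next maxima, at 28000 and 2800 bp, were the same in both lists as well, with r of 0.352 and 0.296 in replicate 1 and 0.411 and 0.296 in replicate 2. In Mgea5 the highest value was 0.876 at 25250 bp in replicate 1 and 0.692 at 25000 bp in replicate 2, but these rest on the few gaps between 3 and 4 wide peaks. The Panx2 lists, with 1 and 2 peaks, have too few edges for such a maximum. The bins lie side by side in 1 contig and share its sequence, so these values are a description, with no test. Whether the block's sequence itself repeats at this distance was not tested, since no sequence of these contigs was used here.

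**Figure D4:**
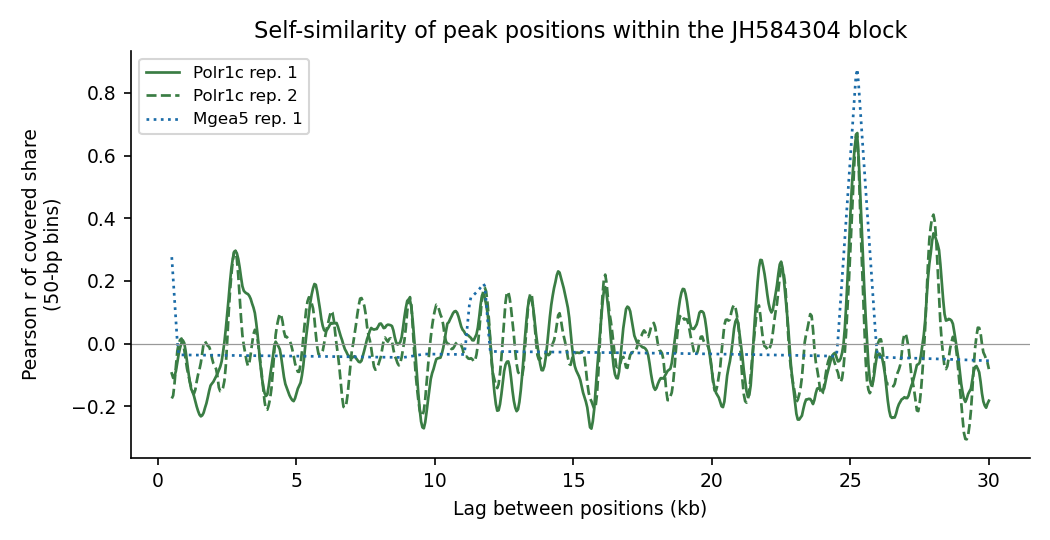
Pearson's r between the covered share of 50-bp bins of the JH584304 block and of bins a given lag away (kb), for both Polr1c lists and Mgea5 replicate 1. The 3 curves peak at the same lag of 25250 bp, with r of 0.659, 0.672 and 0.876.

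At the same fold, Polr1c peaks on JH584304 had lower p-values than peaks on the main chromosomes. Among Polr1c peaks with a fold from 2 to below 2.5, the median −log10 p was 129 for 19 peaks on JH584304 and 2.004 for 125 on main chromosomes in replicate 1. In replicate 2 it was 10.2 for 43 and 2.62 for 11333. Narrow peaks carry their fold and p at the summit, so the pair of values can be solved for the pileup, the number of ChIP reads stacked there, and for the background the caller set against it. The relation used was the caller's fold, ChIP plus 1 over background plus 1, with the Poisson p of the pileup given the background. A single whole number of reads gave both deposited values for 96.1% of the 826 peaks of replicate 1 (with each ChIP read scaled to 0.660) and for 99.97% of the 35927 of replicate 2. These pileups are inferred from the deposited values, not read from a signal track.

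In the block, the pileup was 825 to 3251 reads (median 1756, 27 of 30 peaks solved) in replicate 1 and 122 to 144 (median 140, 31 of 31) in replicate 2. Before the block it was 63 to 89 (median 71.5, 6 peaks) and 33 to 97 (median 49, 56 peaks), and the ranges did not overlap in either replicate. The medians on the main chromosomes were 10 and 9 reads. Of the solved main chromosome peaks, 19 of 756 in replicate 1 and 65 of 35718 in replicate 2 reached the lowest pileup of the block.

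The background was high in the same place. In the block it was 257 to 1058 in replicate 1 and 47.4 to 70.4 in replicate 2, on the caller's scale, against medians of 1.28 and 2.27 on the main chromosomes. Where it matched whole control reads, these were 310 to 1058 in replicate 1 (25 peaks) and 95 to 141 in replicate 2 (31 peaks, with each control read scaled to 0.499). The control pileup of this block was thus above the median of the main chromosomes as well. In replicate 2 no peak of the list had a pileup above 144, and 39 peaks, 9 of them on JH584304, stood exactly at it. The block pileups of that list, 122 to 144, lay at or near this highest value. Its block folds may therefore be limited by it, which was not tested. In replicate 1, 59 peaks exceeded that value, 27 of them on JH584304, up to 6615. Whether repeated reads at a position were kept differently in the 2 calling runs is not given in the sources used here.

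**Figure D5:**
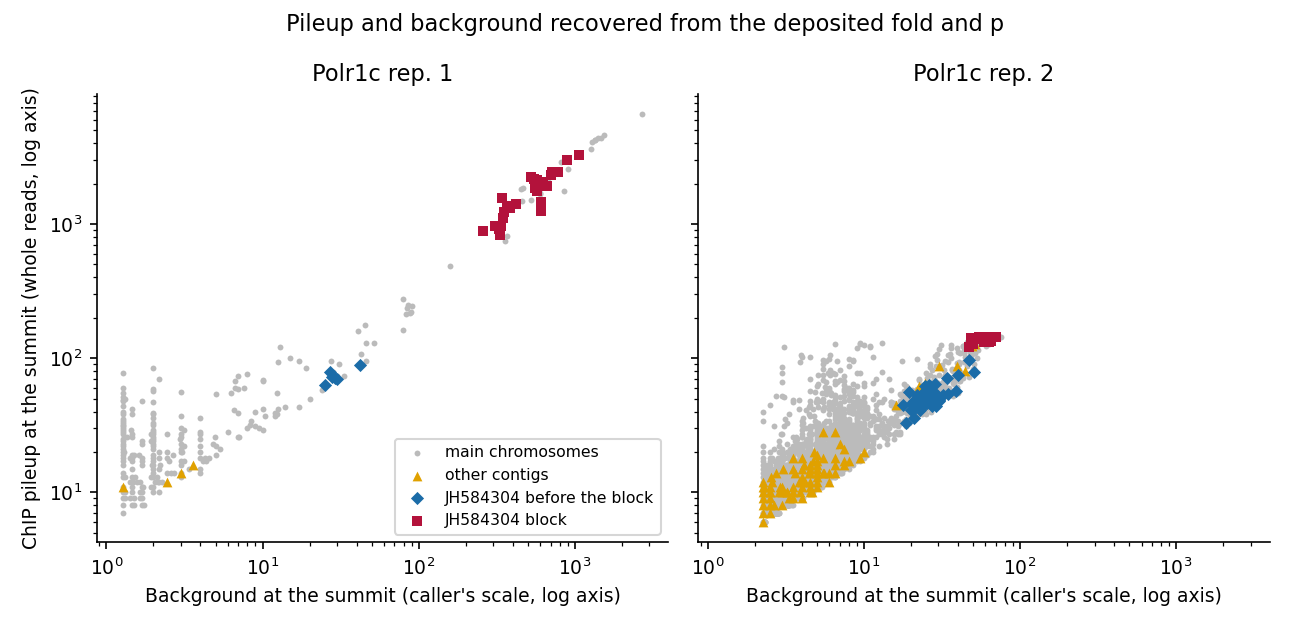
ChIP pileup at the summit (whole reads, log axis) against the background on the caller's scale (log axis) for each solved Polr1c peak, with 1 panel per replicate. The block of JH584304 lies at the upper end of both axes, at 825 to 3251 reads in replicate 1 and 122 to 144 in replicate 2, where no peak exceeds 144.

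Outside JH584304, strong peaks recurred on 3 short Un contigs. GL456370 had a region at bases 25376 to 26601 that was strong in the 4 run B lists. The highest fold of any peak there was 2.34 in Mgea5 replicate 1, 2.52 in replicate 2, 2.67 in Panx2 replicate 2 and 2.80 in Polr1c replicate 2. The peaks of 2.52 and 2.80 were not themselves strong, and the strong Polr1c replicate 2 peak there had a fold of 2.44. GL456392 had a region at 21619 to 23303, strong in the same 4 lists, with highest folds of 1.72, 1.76, 2.305 and 2.83. Both regions reach to the last peak base seen on their contig, 26601 and 23303. Neither contig had a peak in the 2 lists of run A, so these regions had no second replicate for Panx2 or Polr1c, and only the Mgea5 pair shared them.

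The first bases of GL456370, 12 to 180, held a peak in the same 4 lists, strong in 3, with folds of 1.91 and 2.26 for Mgea5, 3.28 for Panx2 replicate 2 and 2.68 for Polr1c replicate 2. Bases 6525 to 6929 were strong in 2 lists, with folds of 4.16 for Panx2 replicate 2 and 3.87 for Polr1c replicate 2, and overlapped wider Mgea5 peaks of 2.39 and 2.04 that were not strong. Bases 17531 to 18085 were strong in Polr1c replicate 2 alone, where the fold was 4.47, and lay under wider peaks of 2.39, 1.94 and 2.63 in both Mgea5 lists and Panx2 replicate 2. GL456370 was thus the contig with the most separate strong regions after JH584304. Peaks covered 45.2%, 53.5%, 41.0% and 13.6% of its span in the 4 run B lists, the span being the highest peak end in any list and so a lower bound on the contig's length.

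The recovered pileup separated these regions. In Polr1c replicate 2 the strong peak near the end of GL456370 had 127 reads over 103 control reads, and the strongest of GL456392 had 123 over 98, within the range of the JH584304 block. The peak of fold 4.47 at 17531 had 28 reads over 11 control reads, and that at 6681 had 28 over 13. The 2 highest folds of GL456370 in this list therefore came from pileups below those of its ends, which had 62 reads at the start and 127 at the end.

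GL456396 had 1 region at bases 11872 to 12086, strong in both Mgea5 lists with folds of 2.13 and 1.94. Panx2 replicate 2 had a peak there of fold 1.99 and −log10 q 1.196, below the threshold, and the other 3 lists had none. The first 5812 bases of JH584304, from base 116, were strong in Panx2 replicate 2 (fold 1.85) and Polr1c replicate 2 (2.37), and held peaks that were not strong in the other 4 lists.

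The remaining 28 strong regions were each strong in Polr1c replicate 2 alone, 16 of them on JH584304 before the block and 12 elsewhere. On the random contigs, 8 of the 85 peaks of this list (9.41%) were strong, against 3.75% on the main chromosomes and 3.92% of the list. All 4 chromosome 1 contigs and chr4_GL456216_random had at least 1. The highest were on chr1_GL456210_random, at bases 121548 to 121791 with a fold of 4.23 from 18 reads and at 76827 to 76989 with a fold of 4.02 from 14 reads. Polr1c replicate 1 had no peak at either place. At the first, both Mgea5 lists (1.52 and 1.99) and Panx2 replicate 2 (2.42) had wider peaks that were not strong. At the second, Mgea5 replicate 2 (1.83) and both Panx2 lists (1.82 and 1.86) did.

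The highest contig fold was in no list at the contig peak with the highest −log10 q. It was 2.67 in Mgea5 replicate 1, at chr5_JH584299_random bases 937848 to 937997, with a −log10 q of 0.0449. In Mgea5 replicate 2 it was the 2.52 at the end of GL456370, a peak of −log10 q 0.227 beside the strong one. On chrUn_GL456383, bases 5432 to 7374 gave the highest fold of Panx2 replicate 1, 2.73, and the overlapping bases 5640 to 5958 that of Polr1c replicate 1, 3.63, from 11 reads and with a −log10 q of 0. These 2 lists share calling run A, and neither peak was strong. In Panx2 replicate 2 and Polr1c replicate 2 the highest folds were the 4.16 and 4.47 of GL456370 given above. By −log10 q the first contig peak was in the JH584304 block in 5 lists, and at the start of GL456370 in Mgea5 replicate 2 (4.42).

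Over all contig peaks, the median fold did not differ from that of the main chromosomes in a common direction. It was 1.74 against 1.71 and 1.73 against 1.71 in the Mgea5 lists, 1.87 against 1.80 and 1.86 against 1.84 in the Panx2 lists, and 2.16 against 3.05 and 2.36 against 2.75 in the Polr1c lists. The log2 difference was −0.10 on average (SD 0.22, n = 6 lists, higher in 4 of 6, exact permutation p = 0.5, adjusted p = 0.5). The 4 broad lists were slightly higher on contigs and both narrow lists lower.

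Contig peaks were wider in every list. The median width was 635 bp against 524 on main chromosomes and 524 against 432 in the Mgea5 lists, 900 against 712 and 580 against 513 in the Panx2 lists, and 488 against 313 and 260 against 189 in the Polr1c lists. The log2 ratio was 0.36 on average (SD 0.17, n = 6, higher in 6 of 6, exact permutation p = 0.03125, adjusted p = 0.0417). Without JH584304 it was 0.15, still higher in 6 of 6 lists (exact permutation p = 0.03125). The contig medians were then 617 and 510 bp for Mgea5 and 833 and 567 bp for Panx2. The Polr1c lists were only just higher, at 319 bp (5 peaks) against 313 and 192 bp against 189.

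Contig peaks overlapped the other replicate of their protein more often than main chromosome peaks did. An overlap of at least 1 bp was found for 298 of 478 (62.3%) and 306 of 569 (53.8%) contig peaks of Mgea5, where the whole lists had 34.8% and 37.0%. It was found for 96 of 196 (49.0%) and 114 of 482 (23.7%) of Panx2, against 28.1% and 8.88% of the lists, and for 34 of 41 (82.9%) and 33 of 200 (16.5%) of Polr1c, against 43.5% and 1.02%. The difference from the main chromosomes was 22.9 points on average (SD 10.3, n = 6, higher in 6 of 6, exact permutation p = 0.03125, adjusted p = 0.0417), with the same overlaps counted from both sides of a pair. Without JH584304 it was 4.89 points (higher in 4 of 6, exact permutation p = 0.656). The 4 broad lists stayed higher, at 60.8% and 52.6% of the other contig peaks for Mgea5 and 45.4% and 21.6% for Panx2. Polr1c replicate 1 had 0% of its 5 remaining peaks shared, and without that list as well the difference was 14.2 points (higher in 4 of 5 lists, exact permutation p = 0.125, where 5 lists allow no p below 0.0625).

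For Polr1c, all contig peaks that overlapped the other replicate were on JH584304. There 34 of 36 peaks of replicate 1 and 33 of 87 of replicate 2 overlapped the other list. On all other contigs 0 of 5 and 0 of 113 did, against 41.4% and 0.935% on the main chromosomes. With so few peaks in replicate 1 and so low a share in replicate 2, these counts do not set the other contigs apart. Sharing also rises with the sequence that peaks cover. Over the summed span of all 29 sequences, the span of each being its highest peak end in any list, contig peaks covered 15.2% and 16.7% for Mgea5, against 13.05% and 10.2% of the main chromosomes. The cover was 8.18% and 13.8% against 4.53% and 11.6% for Panx2, and 0.858% and 2.45% against 0.0108% and 0.284% for Polr1c. Without JH584304 it was 12.7% in Mgea5 replicate 1 and 11.3% in Panx2 replicate 2, below their main chromosomes, and above them in the other 4 lists. The part of this cover in the sharing was not tested.

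The random contigs differed among themselves in how much peaks covered them. The 4 chromosome 1 contigs, GL456210, GL456211, GL456212 and GL456221, were covered over 32.9% to 41.0% of their span in Mgea5 replicate 1 and 36.2% to 46.4% in replicate 2. The longer chr5_JH584299_random was covered over 5.64% and 7.11%, below the 13.05% and 10.2% of the main chromosomes. The chromosome 1 contigs had 13.7% to 20.8% and 25.3% to 37.5% in the Panx2 lists, against 5.69% and 4.53% on the chromosome 5 contig, which was above the 4.53% of the main chromosomes in replicate 1 and below the 11.6% in replicate 2. In Polr1c replicate 2 they had 1.23% to 3.01% against 0.213%. The chromosome 1 contigs were thus each covered more than the chromosome 5 contig in these 5 lists, and Polr1c replicate 1 had only 1 peak on each of 3 chromosome 1 contigs and none on the chromosome 5 contig. In none of the Mgea5 and Panx2 lists did a random-contig peak exceed a −log10 q of 1.48.

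The order of contigs by their highest fold was alike between some lists and not between others. Spearman's rho was 0.57 between the Mgea5 replicates over 17 sequences and 0.39 between the Panx2 replicates over 7. Between proteins within run B it was 0.69 and 0.61 for Panx2 replicate 2 with the 2 Mgea5 lists, over 18 and 17 sequences, and 0.64 for Panx2 replicate 2 with Polr1c replicate 2 over 18. Polr1c replicate 1 went the other way with the 2 Mgea5 lists, at −0.23 and −0.49, but not with Panx2 replicate 1, at 0.17, over 6 sequences each. These values describe sequences that share libraries and base composition and have different lengths, and carry no test.

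The mitochondrial genome had few and weak peaks. Mgea5 replicate 1 had 3, Mgea5 replicate 2 had 1, Panx2 replicate 2 had 7, and Panx2 replicate 1 and both Polr1c lists had none. Their folds ran from 1.18 to 1.54, and the highest −log10 q was 0.628. In Mgea5 replicate 2 the single peak had the lowest fold of its list, and in Mgea5 replicate 1 and Panx2 replicate 2 a chrM peak was the lowest as well. The lists with chrM peaks are all of run B.

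By the RefSeq annotation (GRCm38.p6, the assembly that mm10 is made from), the 3 lists had 1 stretch in common, bases 15665 to 16013, in the noncoding part past the last gene, TrnP, a tRNA gene that ends at base 15422. The peaks there had folds of 1.37 in Mgea5 replicate 1, 1.24 in Mgea5 replicate 2 and 1.54 in Panx2 replicate 2. This is the side of the mitochondrial genome that holds its control region. The Panx2 replicate 2 peak was the highest of the 11.

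Of the 13 protein-coding mitochondrial genes, peaks touched 2 in Mgea5 replicate 1, 0 in Mgea5 replicate 2 and 5 in Panx2 replicate 2. These lists covered 5.23%, 3.48% and 21.5% of the chrM span, so the list with the most cover touched the most genes. COX1, the catalytic subunit of cytochrome c oxidase, had a fold of 1.22 in Mgea5 replicate 1 and 1.33 in Panx2 replicate 2. ND4, a subunit of complex I, had 1.18 and 1.48. Panx2 replicate 2 alone touched ND1 (1.31) and ND5 (1.35), also of complex I, and CYTB (1.22), the cytochrome b of complex III. Of the 2 rRNA genes it touched mt-Rnr2, the large ribosomal RNA, with a fold of 1.43. None of the 22 tRNA genes, each far shorter than the genes named, was touched in any list. None of the Panx2 replicate 2 peaks on chrM had a counterpart in the other Panx2 list.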

How the data were processed

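Peak lists of 6 ChIP libraries were analysed. Tools named per the submitters' processing notes are MACS3 3.0.0a5, Bowtie2 2.3.5 and Trim Galore, with mm10 as the build. How duplicate or multiply aligned reads were treated, the control and the cut-offs are not given in the sources used. The authors' deposited values are a fold (a ratio of ChIP to background pileup), a −log10 p and a −log10 q per peak, used only within a list. The authors' deposited score column was not used. Coordinates are 1-based.

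Contig and main chromosome peaks were compared within lists by 2-sided exact sign-flip permutation tests over the 6 lists, with Benjamini-Hochberg adjustment over 4 tests at 0.05. Overlaps came from bedtools 2.31.1, and statistics from Python 3.11.15 with scipy 1.17.1, numpy 2.4.6 and pandas 2.3.3. The scripts were tested on simulated data. Pileups were solved to 0.001, or a relative 2e-05 where that is larger, on −log10 p, and control reads were called whole within 0.01. Pileup, spacing and block were described after their values were seen.

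Named were the contigs strong in at least 2 lists, the 10 regions strong in the most lists (ties by fold), the highest-fold contig peak of each list, and mitochondrial genes by class. Members and lists were chosen with earlier results of these data known. Planned searches of the contig sequences for motifs were not run, since no sequence of these contigs was used here. Alternatives were other q thresholds, reciprocal overlap of 50%, covered length, chrM apart, autosomes only and leaving out a replicate.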

Additional observations from a re-analysis of the deposited data

Results flagged for a closer look

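The difference in log2 median fold between contigs and main chromosomes went opposite ways by protein. It was 0.0246 in Mgea5 replicate 1, 0.0207 in Mgea5 replicate 2, 0.0520 in Panx2 replicate 1 and 0.0146 in Panx2 replicate 2, so that contig peaks were slightly higher in all 4. It was −0.500 in Polr1c replicate 1 and −0.225 in Polr1c replicate 2, so that contig peaks were lower in both. The difference between the proteins was not tested. The Polr1c lists are also the narrow ones, so protein and list layout cannot be told apart.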

How the results depend on the processing

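The width difference kept its direction in every setting but chrM alone, where the log2 ratio was −0.25 over the 3 lists with chrM peaks. For the strong share, chrM alone gave −0.0394 points. None of its 11 peaks was strong, so this value is only the main chromosome share with its sign changed. With main chromosome shares so low, 11 peaks could hardly have given another outcome. Sharing on chrM alone was left at 17.6 points (higher in 1 of 3 lists, resting on the single chrM peak of Mgea5 replicate 2, exact permutation p = 1). At a −log10 q of at least 5 the strong share differed by 12.7 points (exact permutation p = 0.0625, adjusted 0.0833). Among strong peaks only, the log2 fold difference was −0.62 and passed the test (exact permutation p = 0.03125, lower on contigs in 6 of 6). Of the strong contig peaks, JH584304 held 3 of 6 and 4 of 8 for Mgea5 and 1 of 1 and 3 of 7 for Panx2. For Polr1c it held 30 of 30 and 49 of 67. The −0.62 thus rests in large part on this contig and is no separate support. Sharing among strong peaks differed by 22.4 points (exact permutation, adjusted p = 0.0833). Leaving out a replicate leaves 3 lists, for which the smallest p is 0.25. The differences then ran from 10.8 to 15.8 points for the strong share, 0.31 to 0.42 for width and 15.7 to 29.998 points for sharing.

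Settings added after seeing the data left out or kept only JH584304, or used 1 calling run. Without JH584304 the strong share turned to −2.20 points and sharing fell short of the threshold at 4.89 points. Polr1c replicate 1, with 5 peaks left, lowered both values, and the negative sign of the strong share rested on it. Without that list as well, the strong share differed by 2.86 points and sharing by 14.2 points. Width then differed by 0.17 and log2 fold by 0.0186. Over 5 lists the smallest p is 0.0625, so the calls on strong share and sharing could not be regained this way. The log2 fold difference ran from −0.14 to 0.0186 over the settings that left out JH584304, left out a replicate or used run B. It was −0.22 in run A and −0.32 on JH584304 alone (higher in 0 of 6 lists). The −0.32 passed the test, but the contig was singled out from these same values, so this is a description and no support. In run A, with 2 lists (smallest p 0.5), the differences were 23.1 points, 0.49 and 31.2 points for strong share, width and sharing, and in run B, with 4 lists (smallest p 0.125), 8.44 points, 0.30 and 18.7 points.

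Among strong peaks, contigs held 5.26% and 6.84% of the Mgea5 lists, 8.33% and 1.86% of Panx2, and 12.2% and 4.76% of Polr1c. By bp covered they held 0.141% and 0.200%, 0.219% and 0.145%, and 8.82% and 1.04%. Contig peaks shared with the other replicate were 22.8% and 19.2%, 10.7% and 4.36%, and 53.7% and 11.0% at a reciprocal overlap of 50%. Between strong peaks of both lists, the shares were 100% and 87.5%, 100% and 28.6%, and 100% and 43.3%. These rest on 6 and 8, 1 and 7, and 30 and 67 strong contig peaks. Their difference from the strong main chromosome peaks missed the threshold (exact permutation p = 0.0625, adjusted 0.0833).

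No paired analysis was possible because the replicate numbers, taken as blocks across proteins, give 2 values, for which no test of this kind can pass its threshold, so the tests pair only contigs and main chromosomes within a list. The labels do not tie a replicate number to a culture or batch. Depth is unknown from the files, which limits all comparisons between lists.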
